A study of Mus musculus with 4 samples.

Results

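CD4+ thymocytes that carry CD62L and lack the chemokine receptor CXCR3 (TT naive) were compared with splenic CD4 T cells whose array is labelled naive, here called the naive-labelled array. The members of the comparison are the genes read by probe sets with exactly 1 gene symbol. Where several probe sets read a gene, the one with the highest mean over the 4 arrays of the series stood for it. This gave 22180 genes from the 41345 probe sets of the arrays, and each gene was described by its log2 value in TT naive minus its log2 value on the naive-labelled array. TT naive cells were thymocytes of CIITAtg mice. That name denotes a transgene of CIITA, the regulator that switches on MHC class II genes. No source used here gives the promoter that drives the transgene. The cells on the naive-labelled array were sorted as CD4+CD62Lhi from the spleen of wild-type mice, and the labels also describe this population as TE-naive. The other arrays hold cTh1 and nTh1. The cTh1 are Th1 cells made from splenic naive cells of wild-type mice in 5 days of culture. The nTh1 are CD4+CD62L+CXCR3+ thymocytes of CIITAtg mice. The cTh1 culture held CD3/CD28 beads, 2 ng/ml of IL-12, 50 U/ml of IL-2 and anti-IL-4. All mice were on the C57BL/6 background and 8 weeks old, and 300 ng of total RNA went into each labelling. Nor is the number of animals behind each RNA given.

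The 2 arrays compared differ in tissue and in genotype at once, so the 2 cannot be told apart. With 1 array a side there is no replicate error, no test was made, and every value below describes these arrays. Fewer cells of a type and less RNA per cell cannot be told apart in RNA from a whole population.

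Naive CD4 T cells are kept quiescent by factors such as KLF2 and FOXO1, which also maintain the receptors for lymph node homing and for exit from the thymus. A different set of T cells, the innate-like cells, is made in the thymus under PLZF, the transcription factor encoded by Zbtb16. Such cells carry receptors for tissue homing and for cytokines and can release IFN-γ or IL-4 quickly. CD4 T cells selected on MHC class II of other thymocytes belong to this PLZF+ kind. Th1 cells owe their IFN-γ, CXCR3 and IL-12 receptor to T-bet, which Tbx21 encodes.

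The naive-labelled array went against its label. Zbtb16 was at 12.23 on it, against 9.36 in TT naive, 7.31 in cTh1 and 9.88 in nTh1. Tbx21 was at 9.81 there, against 7.11 in TT naive, 11.25 in cTh1 and 7.92 in nTh1. Both factors are low in textbook naive CD4 T cells, and the highest Zbtb16 value of the series was on the array with the naive label. Several of its MHC class II genes went against the wild-type label too, with values given among the results. The term naive-labelled array is used for that reason, and every direction below rests on that label. Cd4 lay within 0.31 between the compared arrays, at 12.33 on the naive-labelled array and 12.63 in TT naive. Xist, which is transcribed from the inactive X chromosome of females, was at 12.58 and 13.03, and the Y-linked Eif2s3y at 8.61 and 8.55, in the naive-labelled array and TT naive. In cTh1 and nTh1, Eif2s3y was at 4.97 and 5.16. Both compared arrays thus carried Xist and a Y-linked transcript together. The sources used here do not give the sex of the animals.

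A gene passed the level filter when either array reached 6.61, the median over every probe set of the series. Of the 22180 genes, 12582 passed. A difference of 1 on the log2 scale is 2-fold, and 100 genes (0.795%) were at least 2-fold higher in TT naive while 326 (2.59%) were at least 2-fold lower. The other 12156 lay within 2-fold. These shares are the background for the list counts below. List counts are given over measured members, and members that did not pass the filter could not be counted as 2-fold different. Some genes passed through 1 array alone, on either side. At 4-fold or more, 7 genes were higher and 35 lower. The median difference was -0.06 over genes past the filter and -0.04 over all genes, and 1% of genes were below -1.41 and 1% above 0.92. The SD of the difference between probe sets of 1 gene was 0.30 over 464 genes, which covers probe and isoform differences and leaves out animals, sorts and arrays. Array medians were 6.57 for the naive-labelled array and 6.64 for TT naive.

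**Figure D1:**
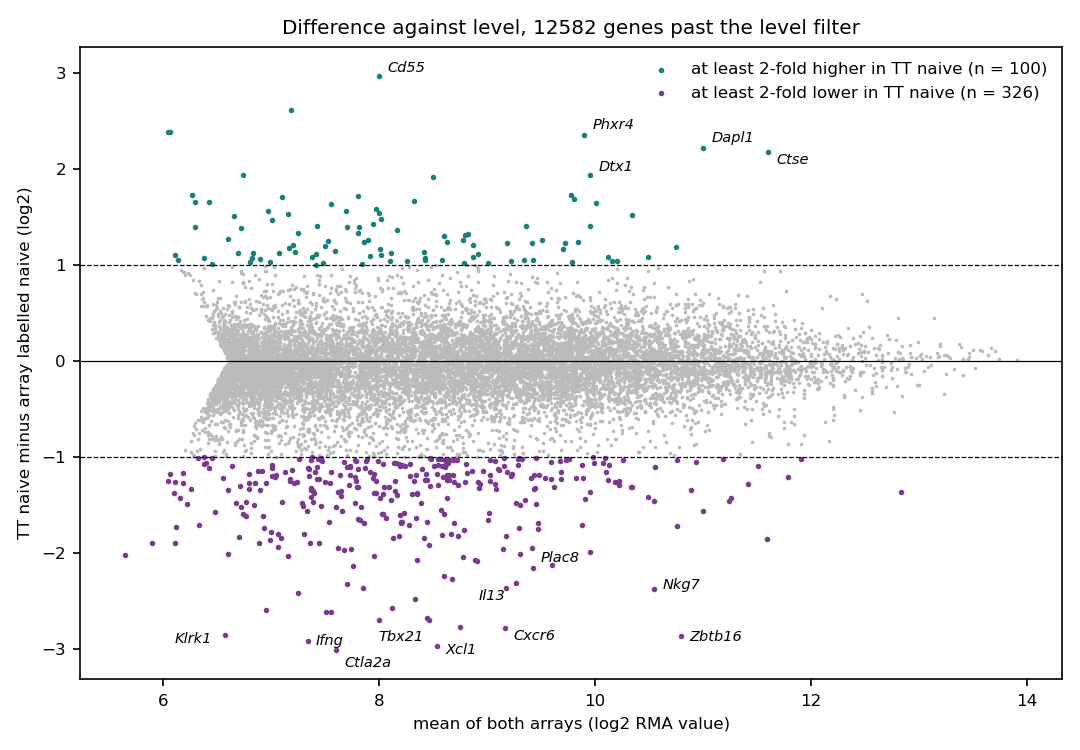
Difference of each gene past the level filter (log2, TT naive minus the naive-labelled array) against its mean log2 level on both arrays, 1 point a gene. More points lie beyond the lower 2-fold line (326 genes) than beyond the upper one (100 genes), and Cd55 and Ctla2a mark the ends.

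Genes higher in TT naive were led by Cd55, which encodes decay-accelerating factor, a surface protein that stops complement. Cd55 was at 6.52 on the naive-labelled array, 9.49 in TT naive, 8.67 in cTh1 and 8.19 in nTh1, a difference of 2.97. Its value on the naive-labelled array was the lowest of the 4, so Cd55 set that array apart from all others. The related Cd55b did not pass the filter.

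Dapl1 was at 9.90 on the naive-labelled array, 12.11 in TT naive, 11.70 in cTh1 and 8.28 in nTh1, a difference of 2.21. The high arrays were TT naive and cTh1. Dtx1, a ubiquitin ligase gene of the Notch pathway, was at 8.99, 10.92, 8.48 and 9.17 in the naive-labelled array, TT naive, cTh1 and nTh1. Here only TT naive stood above the other arrays, by 1.93 over the naive-labelled array, and a second probe set of Dtx1 gave 1.17. Ctse, the gene of the aspartic protease cathepsin E, was at 10.52 on the naive-labelled array and 12.69 in TT naive, and at 9.80 in cTh1 and 12.43 in nTh1. The thymic arrays were both above the splenic one and the cultured one for Ctse. Slc16a5, of the monocarboxylate transporter family, was also higher on both thymic arrays. It was at 8.91 on the naive-labelled array, 10.64 in TT naive, 9.33 in cTh1 and 11.14 in nTh1. Its difference was 1.73, and 1.62 by its other probe set.

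Among the other 15 of the 20 highest named genes, Adam4 (2.38), Phxr4 (2.35) and Slc28a2b, of the nucleoside transporter family (1.91), came first. Adam4 was at 4.88 on the naive-labelled array and 7.26 in TT naive, so it passed the filter through TT naive alone. The same held for Ly6c1 (5.60 on the naive-labelled array), Chil5 (6.4) and Sqle (6.58), named below, and for Cd55 (6.52). Ifi214, of the interferon-inducible p200 family, differed by 1.68, and members of that family are near copies of each other, so its value is uncertain. Ly6c1 differed by 1.66 while its near copy Ly6c2 differed by -0.70, and reads of such a pair may be divided between probe sets. Sez6l2 differed by 1.66 in the probe set used and by 0.35 and 0.11 in its other probe sets. The inducible HSP70 genes Hspa1b (1.64) and Hspa1a (1.22) are near-identical and are counted as 1 observation of uncertain origin. Chil5 (1.53), Tbrg3 (1.40), Ggt5 (1.39), Sqle (1.33), Cep295nl (1.33), Amigo2 (1.32), Hspbap1 (1.31) and Kcnq1ot1, an imprinted non-coding RNA at 7.95 and 9.25 in the naive-labelled array and TT naive, complete the group.

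**Figure D2:**
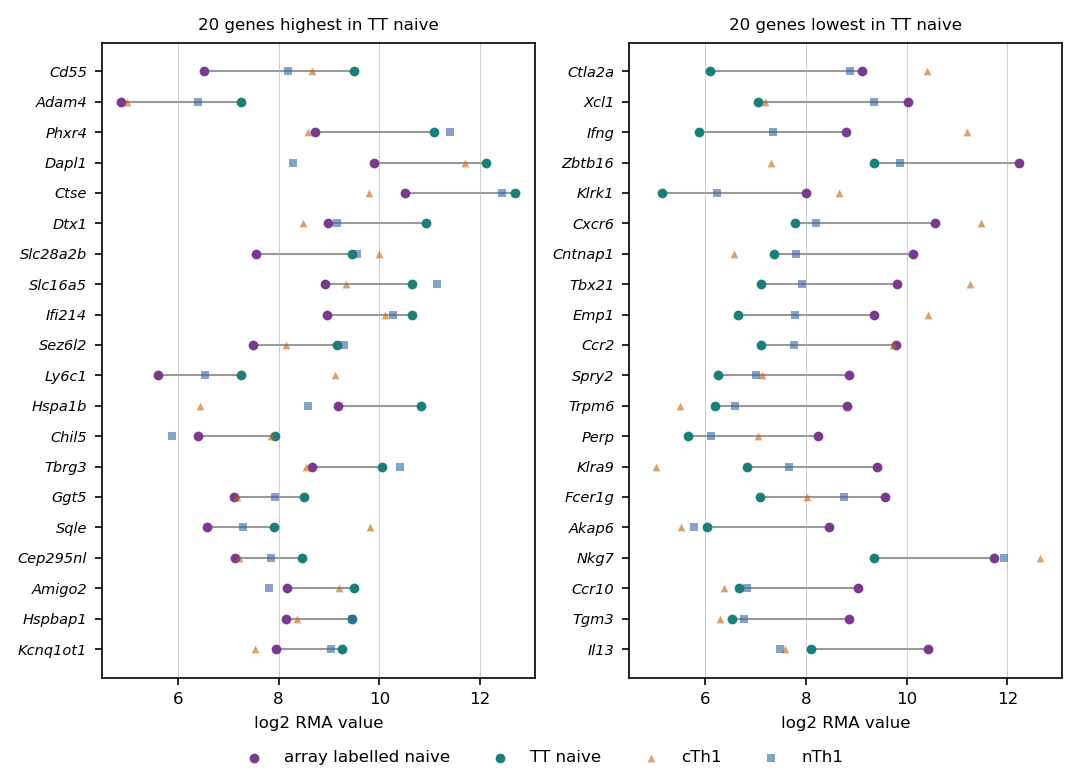
Levels (log2 RMA value) of the 20 highest genes (left) and the 20 lowest (right), with a marker for each of the 4 arrays and a line joining the compared ones. The lines run from Cd55, with a difference of 2.97, to Ctla2a at the head of the lowest genes with -3.01, and the cTh1 and nTh1 markers lie on either side.

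Genes of the naive and quiescent state were mostly a little higher in TT naive. Of 34 measured list members, all past the filter, 29 were above 0, 4 were at least 2-fold higher (Cd55, Dapl1, Dtx1 and Ly6c1), and 0 were at least 2-fold lower. The list median was 0.33, against -0.04 over all genes. Cd55, Dapl1 and Dtx1 were put on the list with their values in these data known. Actn1, the gene of an actin cross-linker, was at 11.24 on the naive-labelled array and 12.18 in TT naive (0.93). Klf2, the homing and quiescence factor, was at 10.14 and 10.96 (0.81), with 10.71 in cTh1 and 10.98 in nTh1. The naive-labelled array had the lowest Klf2 value of the series. Bach2, a repressor that restrains effector genes, was at 10.29 on the naive-labelled array, 11.06 in TT naive, 10.71 in cTh1 and 11.44 in nTh1 (0.76). The glucocorticoid-induced Tsc22d3 (0.82), the thioredoxin inhibitor gene Txnip (0.67), Il6ra (0.59), Klf3 (0.58) and Foxp1 (0.53) were also above 0. The homing and survival receptors differed less, with Ccr7 at 0.26, the egress receptor S1pr1 at 0.27 and the IL-7 receptor gene Il7r at 0.02. Foxo1 (0.31), Satb1 (0.22), Id3 (0.17) and Lef1 (0.06) lay within the spread between probe sets or just past it. Below 0 were Ly6c2 (-0.70), Sox4 (-0.62), the antiproliferative Tob1 (-0.39), Ramp1 (-0.21) and Rgs10 (-0.02). Tcf7 was not analysed here.

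The innate-like programme was lower in TT naive. Of 30 measured members of the list of PLZF and innate-like T cells, 14 were at least 2-fold lower, 0 were at least 2-fold higher and 4 did not pass the filter, and the median over all measured members was -1.06. Zbtb16 itself differed by -2.87, and the value in TT naive (9.36) stayed well above the 7.31 of cTh1. Cxcr6, a receptor of innate-like and tissue T cells, was at 10.56 on the naive-labelled array, 7.78 in TT naive, 11.47 in cTh1 and 8.19 in nTh1 (-2.78). For Cxcr6 the naive-labelled array lay beside cTh1, and the thymic arrays lay together below them. Ccr8 was at 10.95, 8.96, 8.10 and 10.02 in the naive-labelled array, TT naive, cTh1 and nTh1 (-1.99).

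The IL-18 receptor genes were lower as well. Il18rap was at 8.17 on the naive-labelled array, 6.14 in TT naive, 10.85 in cTh1 and 7.27 in nTh1 (-2.03), and Il18r1 was at 10.09, 8.27, 11.78 and 8.27 (-1.82). Both were highest in cTh1, followed by the naive-labelled array. Plac8 had the same order, at 10.50, 8.34, 12.21 and 8.64 (-2.16). Other members at least 2-fold lower were the TNF family ligand gene Tnfsf11, encoding RANKL (-1.50), Cd160 (-1.47), Rora (-1.43) and the integrin gene Itgae (-1.33). Klrb1c, which encodes NK1.1, was at 6.32 and 4.84 in the naive-labelled array and TT naive, below the filter on both arrays. Il17rb, whose product binds IL-25, was at 11.23 on the naive-labelled array, 10.33 in TT naive, 5.73 in cTh1 and 8.98 in nTh1. It differed by -0.89 and was far above cTh1 on both compared arrays. Il2rb differed by -0.87, Id2 by -0.51, Icos by -0.50 and Gata3 by -0.24. Members that differed little or leaned the other way were Slamf6 (0.08), Egr2 (0.14), Cd40lg (0.16) and Slamf1 (0.34). The mean over the probe sets of Slamf6 was 0.57.

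Cytokine genes of both T helper arms were lower in TT naive. Ifng was at 8.80 on the naive-labelled array, 5.88 in TT naive, 11.19 in cTh1 and 7.34 in nTh1 (-2.91). Il4 was at 8.99, 7.39, 6.04 and 6.48 (-1.60), and Il13 was at 10.42, 8.11, 7.58 and 7.48 (-2.32), in the naive-labelled array, TT naive, cTh1 and nTh1. The naive-labelled array was therefore highest of the series for Il4 and Il13, while cTh1 was highest for Ifng.

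The Th1 list shares Cxcr6, the IL-18 receptor genes and Nkg7 with other lists. It had 23 measured members, of which 13 were at least 2-fold lower in TT naive, 0 were at least 2-fold higher and 1 did not pass the filter. Its median was -1.63. Tbx21 differed by -2.70. The IL-12 receptor gene Il12rb2 was at 8.83 on the naive-labelled array, 6.69 in TT naive, 12.10 in cTh1 and 8.93 in nTh1 (-2.14), and Il12rb1 at 9.16, 7.53, 10.06 and 7.54 (-1.63). Cxcr3 differed by -2.05, at 9.80 and 7.76, and since TT naive cells were sorted as CXCR3- this value reads the sort. Fasl, the death ligand gene, was at 9.93 on the naive-labelled array, 7.85 in TT naive, 10.12 in cTh1 and 9.60 in nTh1 (-2.08). TT naive was the low array and the other 3 lay close together. Ccl5, a chemokine of effector cells, differed by -1.84, and Bhlhe40, a transcription factor gene of cytokine-producing T cells, by -1.74. Stat4, the transducer of IL-12, differed by -0.46 and Runx3 by -0.16.

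Of the 16 measured T-box factors and partners, 3 were at least 2-fold lower, and the median was -0.20. Eomes was among them, at 10.03 on the naive-labelled array, 8.84 in TT naive, 7.94 in cTh1 and 10.68 in nTh1 (-1.19). In contrast to Tbx21, Eomes was highest in nTh1 and lowest in cTh1.

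Of the 18 measured genes of cytotoxic granules and death ligands, 7 were at least 2-fold lower and 0 at least 2-fold higher, with a median of -0.61. Gzma was at 7.83 on the naive-labelled array, 5.94 in TT naive, 10.52 in cTh1 and 7.58 in nTh1 (-1.89). Gzmb was at 7.61, 5.59, 12.50 and 6.02 (-2.01). Gzma and Gzmb were lowest in TT naive, at values below the filter level. The other granzyme genes of the list differed less, with Gzmk at -0.59, Gzmm at -0.02 and Gzmc, which did not pass the filter, at 0.13. Nkg7, a granule membrane protein gene, was at 11.73, 9.36, 12.64 and 11.92 (-2.37), and the perforin gene Prf1 differed by -0.31. Receptors of NK cells followed. Klrk1, which encodes NKG2D, was at 8.00 on the naive-labelled array, 5.15 in TT naive, 8.65 in cTh1 and 6.24 in nTh1 (-2.85), and Klrc1 was at 6.99, 5.26, 9.58 and 6.24 (-1.73). Of the 17 measured Klr receptor genes, 6 passed the filter and 5 of those were at least 2-fold lower. Klra9, Klra6 and Klrb1f, at -2.58, -1.48 and -1.51, belong to families of near copies and are uncertain. Fcer1g, the signalling chain of Fc receptors, was at 9.57, 7.09, 8.03 and 8.75 in the naive-labelled array, TT naive, cTh1 and nTh1 (-2.48).

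Of 15 measured Th2 genes, 5 were at least 2-fold lower, 0 were at least 2-fold higher and 4 did not pass the filter, with a median of -0.64. Beside Il4 and Il13 these were Ccr4 (-1.46), Maf (-1.32, and -1.36 by its other probe set) and Ccr8. The IL-4 regulator gene Nfil3 differed by -0.96. Of the 11 measured Th17 genes, 5 passed the filter, and 2 were at least 2-fold lower, among them Ahr, the aryl hydrocarbon receptor gene (-1.38), and Rora.

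Chemokine receptors were divided. Of 23 measured, 7 were at least 2-fold lower and 0 at least 2-fold higher, with a median of -0.18. Ccr2 was at 9.79 on the naive-labelled array, 7.11 in TT naive, 9.74 in cTh1 and 7.76 in nTh1 (-2.68), and Ccr10 at 9.03, 6.67, 6.37 and 6.84 (-2.36). Ccr2 was shared with cTh1, whereas Ccr10 was high on the naive-labelled array alone. Ccr9, the gut and thymus homing receptor gene, was at 8.84, 7.39, 6.43 and 7.60 (-1.45), so the thymic TT naive cells had less of it than the splenic array. The remaining receptors at least 2-fold lower were Cxcr6, Ccr8, Cxcr3 and Ccr4. Of 31 measured cytokine and chemokine ligands, 20 passed the filter and 8 were at least 2-fold lower, with a median of -0.31. Among members past the 75th percentile of all values the medians were -0.89 for the receptors and -1.55 for the ligands. Xcl1, lymphotactin, was at 10.02 on the naive-labelled array, 7.05 in TT naive, 7.18 in cTh1 and 9.36 in nTh1 (-2.96). For Xcl1 the naive-labelled array lay beside nTh1. Csf1, the macrophage growth factor gene, was at 10.12, 8.17, 10.36 and 7.57 (-1.96). Il21 differed by 0.46.

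Surface and adhesion genes of memory-like cells were divided. Of 26 measured members, 9 were at least 2-fold lower in TT naive and 0 at least 2-fold higher, 17 lay below 0 and 9 above, and the list median was -0.60. S100a6 was at 9.95 on the naive-labelled array, 7.87 in TT naive, 9.98 in cTh1 and 6.77 in nTh1 (-2.08). Anxa2, the gene of a membrane-binding protein, was at 10.35, 8.60, 11.33 and 8.52 (-1.75), and S100a11 at 12.06, 10.78, 12.22 and 10.20 (-1.28). In these 3 genes both thymic arrays lay below the naive-labelled array and cTh1. Cd44, the hyaluronan receptor gene used to mark memory cells, was at 8.75 on the naive-labelled array, 7.44 in TT naive, 8.69 in cTh1 and 9.45 in nTh1 (-1.31). Here nTh1 was highest, so the thymic arrays were not alike. Itgb1 differed by -1.26 and Lgals3, galectin-3, by -1.03. Itga4, whose protein pairs with that of Itgb1, leaned the other way at 0.94, as did Itgb7 (0.56), Emp3 (0.51) and Cd48 (0.42). Among 23 measured integrins and adhesion genes, 4 were at least 2-fold lower, Itga2 (-1.48) and Itgae included. Itgam was at least 2-fold higher, at 6.98 and 7.99, close to the filter.

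The genes of regulatory T cells did not differ in 1 direction. Foxp3, their defining factor, was at 8.82 on the naive-labelled array, 9.87 in TT naive, 9.21 in cTh1 and 7.29 in nTh1 (1.05), highest in TT naive. The receptor gene Gpr83 (0.72) and Il2ra, CD25 (0.62), were also above 0. Foxp3 was the 1 member of 20 measured that was at least 2-fold higher, 5 were at least 2-fold lower, and the median was -0.52. Nrp1, neuropilin-1, was at 9.81, 7.54, 7.68 and 7.20 (-2.27), high on the naive-labelled array alone. Tigit was at 9.81, 8.23, 9.68 and 8.91 (-1.58), and Penk (-1.69), the ectonucleotidase gene Entpd1 (-1.67) and Ikzf2, Helios (-0.89), were also below 0. Of 13 measured inhibitory receptor genes, 4 were at least 2-fold lower, and the median was -0.02. Pdcd1, which encodes PD-1, was at 10.85 on the naive-labelled array, 9.59 in TT naive, 8.19 in cTh1 and 8.43 in nTh1 (-1.25). The splenic array was highest, and TT naive was still above both Th1 arrays. Lilrb4a differed by -1.89. Of 17 measured follicular helper genes 3 were at least 2-fold lower, with Tox2 at -1.07.

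**Figure D3:**
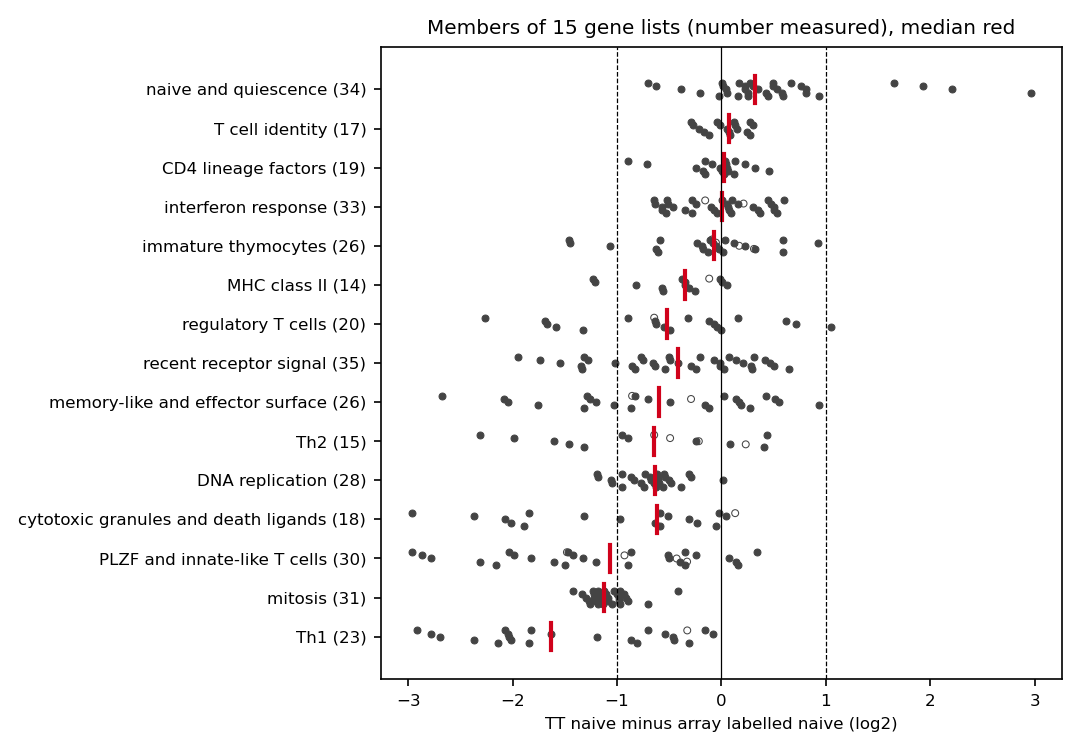
Differences (log2, TT naive minus the naive-labelled array) of the measured members of 15 gene lists, 1 point a gene, open where the gene did not pass the level filter, with a red bar at the list's median. The medians run from -1.63 for Th1 genes to 0.33 for naive and quiescence genes, and the lists overlap each other widely.

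Genes induced by recent receptor signalling were mostly lower in TT naive. Of 35 measured, 8 were at least 2-fold lower, 0 at least 2-fold higher, with a median of -0.42. Over all genes past the filter the shares were 2.59% lower and 0.795% higher. Fosl2, an AP-1 subunit gene, was at 10.39 on the naive-labelled array, 8.44 in TT naive, 10.78 in cTh1 and 9.33 in nTh1 (-1.95). The orphan nuclear receptor gene Nr4a2 was at 9.35, 7.80, 7.11 and 8.80 (-1.55). For both genes the naive-labelled array exceeded either thymic array. The phosphatase gene Dusp5 (-1.35), Gadd45b (-1.33), Rgs1 (-1.32), Ier3 (-1.28) and Rgs2 (-1.02) were at least 2-fold lower too. The immediate early genes Fos (0.42), Jun (0.65) and Myc (0.50) and the activation marker Cd69 (0.30) were above 0, so the list was not uniform. Spry2, an inhibitor of RAS and ERK signalling, was at 8.86 on the naive-labelled array, 6.25 in TT naive and 7.12 in cTh1, a difference of -2.61 between the compared arrays. Among 19 measured genes that cell dissociation induces, 2 were at least 2-fold higher, the HSP70 genes named above, and 1 at least 2-fold lower, with a median of 0.02.

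Notch pathway genes differed in opposite directions. Of 26 measured, 1 was at least 2-fold higher (Dtx1) and 2 at least 2-fold lower, and the median was -0.05. Hey1 was at 8.88 on the naive-labelled array, 7.25 in TT naive, 6.95 in cTh1 and 7.25 in nTh1 (-1.63). Hes1 was at 7.57, 5.96, 6.10 and 7.12 (-1.61). Both encode repressors that are textbook Notch targets, and both were highest on the naive-labelled array, unlike Dtx1. Dtx4 differed by -0.97 and the receptor gene Notch1 by 0.33.

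Mitotic genes were lower in TT naive without exception on the list. All 31 measured members passed the filter and lay below 0, 21 were at least 2-fold lower, and the median was -1.12. Hmmr, whose product acts at spindle poles, was at 8.08 on the naive-labelled array, 6.66 in TT naive, 8.66 in cTh1 and 6.66 in nTh1 (-1.42). Plk1, the mitotic kinase gene, was at 10.87, 9.58, 11.34 and 9.45 (-1.29), and Tpx2, a spindle assembly factor gene, at 9.75, 8.41, 10.12 and 8.10 (-1.34). In each the naive-labelled array lay just below the dividing cTh1 culture, and the thymic arrays lay together at the low end. Kif11, the kinesin gene that separates spindle poles, differed by -1.26, Cdk1, the kinase that drives entry into mitosis, by -1.22, and Cdc20, the activator of the anaphase-promoting complex, by -1.20. Cenpa, the centromeric histone gene, differed by -0.41. The mean level of the list was 9.64 on the naive-labelled array, 8.56 in TT naive, 10.20 in cTh1 and 8.39 in nTh1.

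Of the 28 measured genes of DNA replication, 27 lay below 0 and 4 were at least 2-fold lower, with a median of -0.63. Cdc6, which loads the replicative helicase, was at 9.62 on the naive-labelled array, 8.44 in TT naive, 8.90 in cTh1 and 8.02 in nTh1 (-1.19). The others were Gins2 (-1.19), the helicase subunit gene Mcm3 (-1.06) and Tk1, thymidine kinase (-1.04). Pcna, the sliding clamp gene, differed by 0.02 and was the one member above 0. Among 19 measured cell cycle regulators, 1 was at least 2-fold lower, the CDK inhibitor gene Cdkn1a (-1.14), which was at 12.13 in cTh1. Histone genes, including the variants H2az1 and H2ax, had a median of -0.36 over 9 measured members, of which 6 lay below 0 and 3 above. Among members past the 75th percentile of all values it was -0.69.

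**Figure D4:**
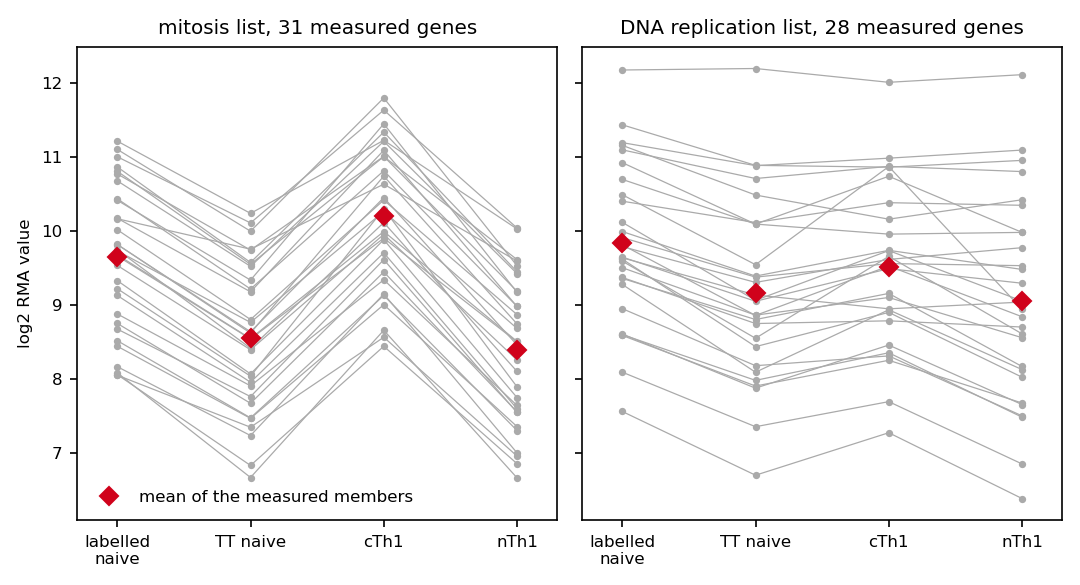
Levels (log2) of measured mitosis and DNA replication genes on each of the 4 arrays, 1 line a gene, with the mean of the list as a red diamond. Mitotic genes average 9.64 on the naive-labelled array and 10.20 in cTh1, against 8.56 in TT naive and 8.39 in nTh1.

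Promoters of the mitosis list are shown because its members differed together. The cell cycle genes homology region is an element of late cell cycle promoters, and CCAAT boxes often lie upstream of it. In RefSeq promoters of GRCm38.p6, taken from 250 bases before to 50 after each gene's start, the letters TTTGAA, which read TTCAAA on the other strand, were searched on both strands. They stood in 23 of 28 promoters of the mitosis list, from 27 genes, or 82.1%, and in 17.9% of all 32851 promoters. DNA replication genes had them in 3 of 27 promoters (11.1%), Th1 genes in 4 of 24 (16.7%) and naive and quiescence genes in 3 of 47 (6.38%). The letters CCAAT, which read ATTGG on the other strand, stood in 22 of 28 mitosis promoters (78.6%), in 17 of 27 replication promoters (63.0%) and in 37.4% of all. Both together stood in 20 of 28 mitosis promoters (71.4%) and in 6.95% of all. The E2F letters TTTCCCGC, which read GCGGGAAA on the other strand, were in 5 of 27 replication promoters (18.5%), in 0 of 28 mitosis promoters and in 1.07% of all. The T-box letters GGTGTGA, which read TCACACC on the other strand, were in 1 of 24 Th1 promoters (4.17%) and in 3.98% of all. None of these letter strings is contained in another, though matches may overlap by a few bases. A match is a description of the sequence, and no binding was measured here.

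Among the windows examined, the 100 bases before the start, 7 of the mitosis list held TTTGAA or its reverse complement. The windows examined need not cover every promoter counted above, so 7 is a minimum. Where the remaining matches lay was not determined. In Mki67, one of the 7, it stood 98 bases before the start with no CCAAT box in the window. Of the 7, the windows of Cdc20, Kif11, Cdk1, Ube2c, Prc1 and Top2a held both motifs. Cdc20, Kif11, Cdk1 and Ube2c are shown as examples. Their 100 bases are written 5′ to 3′ on the gene's strand with the motifs in capitals. Cdc20 lies on the minus strand at chr4:118437344-118437443, Kif11 on the plus strand at chr19:37376282-37376381, Cdk1 on the minus strand at chr10:69352913-69353012 and Ube2c, a ubiquitin-conjugating enzyme gene of mitosis that differed by -1.16, on the plus strand at chr2:164769829-164769928. The match closest to the start begins 18, 19, 15 and 29 bases before it in Cdc20, Kif11, Cdk1 and Ube2c.
Cdc20: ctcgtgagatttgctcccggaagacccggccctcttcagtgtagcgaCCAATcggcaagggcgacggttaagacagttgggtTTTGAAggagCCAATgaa
Kif11: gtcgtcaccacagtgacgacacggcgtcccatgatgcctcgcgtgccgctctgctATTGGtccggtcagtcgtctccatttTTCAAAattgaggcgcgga
Cdk1: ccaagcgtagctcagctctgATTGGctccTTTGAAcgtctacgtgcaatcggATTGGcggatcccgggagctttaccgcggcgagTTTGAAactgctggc
Ube2c: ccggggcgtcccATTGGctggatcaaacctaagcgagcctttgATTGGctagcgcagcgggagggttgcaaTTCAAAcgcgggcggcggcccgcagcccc

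Lists of amino acid metabolism, the unfolded protein response, glycolysis and oxidative phosphorylation had medians below 0 and 0 members past 2-fold. All 16 measured genes of amino acid and one-carbon metabolism lay below 0, with a median of -0.49, among them the amino acid transporter genes Slc7a5 (-0.66) and Slc3a2 (-0.64). Similarly 16 of 17 genes of the unfolded protein response did so, with a median of -0.42 and Ddit3, the CHOP gene, at -0.94. Medians were -0.23 for glycolysis over 16 genes and -0.21 for oxidative phosphorylation over 24. In sterol and lipid synthesis, with 18 measured genes and a median of 0.10, Sqle, squalene epoxidase, was the 1 member at least 2-fold higher. It was at 6.58 on the naive-labelled array, 7.91 in TT naive, 9.81 in cTh1 and 7.28 in nTh1.

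Several programmes differed little. The 17 measured genes of T cell identity had a median of 0.07 and 0 past 2-fold, with Cd3e at 0.08. Receptor signalling components (26 measured, median 0.10, Ubash3a highest at 0.70), the GIMAP family (8, 0.15), interferon-stimulated genes (33, 0.01), MHC class I genes (14, -0.14) and ribosomal protein genes (19, 0.05) likewise had 0 members past 2-fold in either direction. Interferon-stimulated genes ran from Oasl2 at -0.65 to Trim30a at 0.60. The 19 measured CD4 lineage factors had a median of 0.03. Zbtb7b, encoding ThPOK, was at 8.02 on the naive-labelled array and 8.47 in TT naive (0.45), Tox differed by -0.17 and Myb by -0.71. On the same scale these lists contrast with the Th1 median of -1.63.

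Genes of thymic stages did not set the thymic array apart. Of 26 measured genes of immature thymocytes, 0 were at least 2-fold higher in TT naive and 3 at least 2-fold lower, with a median of -0.07. Ccr9 was one of these, and Aqp11, at 8.82 on the naive-labelled array, 7.75 in TT naive, 7.63 in cTh1 and 10.51 in nTh1 (-1.07), another. Cd24a, which declines as thymocytes mature, differed by -0.59. Dntt, the terminal transferase gene of immature lymphocytes, differed by 0.59, and Rag1 was not analysed here. Cd8b1 was at 8.45 and 9.38 (0.93), and Cd8a at 6.31 and 6.22 (-0.09), in the naive-labelled array and TT naive. Cd8a was thus low on both, against 10.31 in cTh1. Of 24 measured genes of maturation and egress, 3 were at least 2-fold lower (Ccr4, Ccr9 and Itgae) and 0 at least 2-fold higher, with a median of 0.06.

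Families of receptors and their inhibitors were mixed. Of 29 measured members of the NFkB and TNF receptor family, 3 were at least 2-fold lower and 0 at least 2-fold higher, with a median of -0.00. The ligand genes Tnfsf14, encoding LIGHT, and Tnfsf11 accounted for 2 of these. Tnfsf14 was at 9.04 on the naive-labelled array, 7.36 in TT naive, 7.12 in cTh1 and 7.31 in nTh1 (-1.68), high on the first array alone. The other was the death receptor gene Tnfrsf21 (-1.02). Of 12 measured common gamma chain receptors and transducers 1 was at least 2-fold lower, Il9r (-1.16), and the median was 0.11, with Il21r at 0.49 and Il2ra at 0.62. SLAM receptors and their adaptors, which innate-like T cells need for selection, had a median of 0.09 over 14 measured, with 1 at least 2-fold lower. That one was Slamf7, at 9.34, 7.92, 12.55 and 8.10 in the naive-labelled array, TT naive, cTh1 and nTh1 (-1.43). Complement regulators and GPI-anchored proteins, the surface class of Cd55, gave 2 of 19 at least 2-fold higher (Cd55 and Ly6c1) and 1 at least 2-fold lower, the urokinase receptor gene Plaur (-1.08), with a median of -0.10. The complement regulator gene Cd46 differed by 0.71. E proteins and Id inhibitors (11 measured, median -0.14), the BCL2 family (14, -0.15) and SOCS and PIM genes (11, -0.20) had 0 members past 2-fold. Heat shock genes had 2 of 13 at least 2-fold higher, the HSP70 genes, with Dnajb4 at 0.79 and Hsph1 at 0.55 and a median of 0.05. Housekeeping genes (12 measured, median -0.14) had 0 past 2-fold.

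Several MHC class II genes, which the transgene is named for, were also against the wild-type label of the splenic array. For H2-Aa the values were 12.66 on the naive-labelled array, 12.29 in TT naive (-0.37), 10.73 in cTh1 and 12.66 in nTh1. Those of H2-Ab1 were 13.41, 13.06 (-0.35), 12.02 and 13.39, and those of H2-DMb1, a chain of the peptide-loading helper H2-DM, were 8.96, 8.62 (-0.35), 6.44 and 9.22. In these 3 genes the naive-labelled array lay with both CIITAtg arrays and above cTh1, the other array of wild-type cells. Of 14 measured genes of the list 2 were at least 2-fold lower, H2-Oa, a chain of the modulator H2-O (-1.23), and H2-Eb2 (-1.21), and the median was -0.35. H2-Eb2 was at 12.39 on the naive-labelled array, 11.19 in TT naive, 8.18 in cTh1 and 11.51 in nTh1. H2-Oa was instead highest in cTh1, at 10.30, 9.07, 10.83 and 9.22 in the naive-labelled array, TT naive, cTh1 and nTh1. Ciita was at 7.59 on the naive-labelled array, 7.28 in TT naive (-0.31), 8.00 in cTh1 and 7.72 in nTh1, also highest in cTh1. Whether the Ciita probe set reads the transgene is unknown. The summed level of B cell markers was highest in cTh1 too, at 13.99 (log2 of summed linear values). The part of B cells in the cTh1 values was not tested.

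Markers of other cell types were lower beside some of these groups. For myeloid cells 13 of 22 measured markers passed the filter, 7 were at least 2-fold lower in TT naive and 1, Itgam, at least 2-fold higher, and the summed level was 11.85 on the naive-labelled array and 11.09 in TT naive (log2 of summed linear values). C1qb, a complement subunit gene of macrophages, was at 8.59 on the naive-labelled array, 6.64 in TT naive, 6.61 in cTh1 and 8.98 in nTh1 (-1.95), and Lyz2, lysozyme, at 7.92, 6.05, 7.17 and 9.44 (-1.86). The neutrophil gene Ngp was near background at 5.25 and 5.29. For NK cells 6 of 10 markers passed, 4 were at least 2-fold lower (Itga2, Eomes, Fcer1g and Gzma, which T cells can also carry), and the summed level was 11.72 and 10.55, with Ncr1, which defines them, at 5.44 and 5.40. B cell markers showed no such difference, as 0 of 16 were past 2-fold, with 8 below 0 and 8 above. Their summed level was 12.48 on the naive-labelled array, 12.89 in TT naive, 13.99 in cTh1 and 13.02 in nTh1. Ighm, part of that sum, was at 11.10 and 12.03 (0.93) in the probe set used. Its other probe sets ran from -0.73 to 0.53, and the mean of all was 0.20. Cd79a was at 6.53 and 6.50, below the filter. Of 9 CD8 T cell markers 2 were at least 2-fold lower, dendritic cell, thymic stroma and erythroid markers had 0 of 13, 0 of 14 and 0 of 6 past 2-fold, and 1 of 6 gamma delta markers was at least 2-fold lower. The part of these cells in the lower Fcer1g, Klr, cytotoxic and MHC class II values was not tested.

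Classes of RNA differed in their balance. Among protein-coding genes, 11594 passed the filter, with 0.457% of them at least 2-fold higher in TT naive and 2.67% at least 2-fold lower. Among miRNA genes 137 passed, with 18 at least 2-fold higher and 0 at least 2-fold lower, and the median was 0.15 over all 478 measured. Long non-coding RNA genes gave 15 higher and 2 lower of 542, and small nucleolar RNA genes 2 higher and 9 lower of 65. Probe sets with no symbol in the annotation leaned higher as well, with 1372 of 7872 (17.4%) at least 2-fold higher and 118 at least 2-fold lower. How many of these passed the filter through TT naive alone was not counted. The cause of the lean was not tested, and without replicate arrays cells and arrays cannot be told apart. Among members past the filter, the balance of protein-coding genes was thus the reverse of that of miRNA genes and unnamed probe sets. Over all measured members the medians were -0.05 for protein-coding genes and 0.15 for miRNA genes. Median levels of miRNA genes past the filter were 7.29 on the naive-labelled array, 7.69 in TT naive, 7.39 in cTh1 and 7.85 in nTh1, so highest in nTh1. Of the 18, several passed the filter through TT naive alone, where they were high, so the count of higher genes rests partly on the filter. These were Mir1955 (4.86 on the naive-labelled array), Mir103-2 (5.47), Mir5104 (5.78), Mir1933 (5.84), Mir342 (5.88), Mir669k (5.97), Mir701 (6.24) and Mir709 (6.48).

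**Figure D5:**
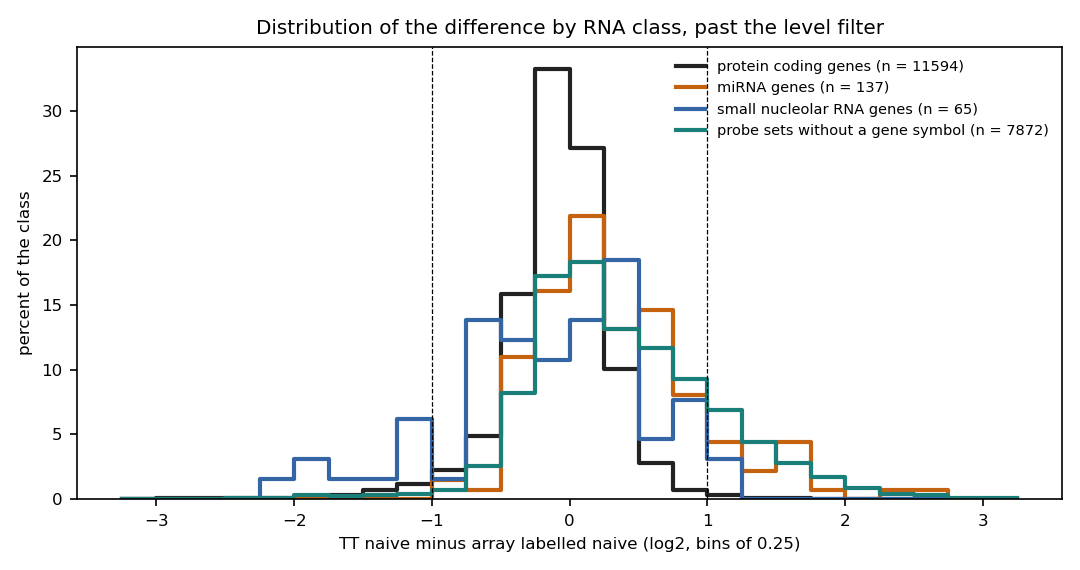
Share (percent) of each class of RNA in bins of the difference (log2, TT naive minus the naive-labelled array), for protein-coding, miRNA and small nucleolar RNA genes and for probe sets without a symbol, all past the level filter. Protein-coding genes centre on -0.06, miRNA genes on 0.24 and unnamed probe sets on 0.28.

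MicroRNAs repress messenger RNAs that pair with their seed, bases 2 to 8. RefSeq gave 22 mature sequences for 13 of the 18 miRNA genes that were at least 2-fold higher. All 22 seeds were distinct, so those 13 genes shared none. No mature sequence was used for Mir709, Mir466h, Mir669k, Mir669a-3 and Mir669m-1, so shared seeds among these genes were not examined. The 4 genes below were chosen after their values were seen, and their mature sequences follow with the seed in capitals.
miR-342-3p: uCUCACACagaaaucgcacccgu
miR-342-5p: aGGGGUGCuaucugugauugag
miR-505-3p: cGUCAACAcuugcugguuuucu
miR-505-5p: gGGAGCCAggaaguauugauguu
miR-103-3p: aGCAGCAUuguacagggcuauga
miR-103-2-5p: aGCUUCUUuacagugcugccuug
miR-339-5p: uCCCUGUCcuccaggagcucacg
miR-339-3p: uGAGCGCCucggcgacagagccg
Mir342 was at 5.88 on the naive-labelled array, 8.49 in TT naive, 8.08 in cTh1 and 7.61 in nTh1 (2.61), low on the naive-labelled array alone. Its host gene Evl was at 11.91, 11.96, 12.21 and 12.12 and differed by 0.05. Mir505 was at 9.58, 11.10, 8.01 and 12.00 (1.52), high on both thymic arrays. Mir103-2 was at 5.47 and 7.12 (1.65) and Mir339 at 7.42 and 8.59 (1.16) in the naive-labelled array and TT naive. Probe sets of miRNA genes may read the precursor, the host transcript or the mature miRNA, which cannot be told apart here.

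Among the remaining lowest genes, the largest difference belonged to Ctla2a, of a family of cathepsin inhibitor-like proteins, at 9.10 on the naive-labelled array, 6.09 in TT naive, 10.41 in cTh1 and 8.88 in nTh1 (-3.01). Its near copy Ctla2b differed by -1.42, and the pair is uncertain. Cntnap1, a contactin-associated membrane protein gene, was at 10.13, 7.36, 6.58 and 7.80 (-2.77), and Trpm6, a magnesium channel gene, at 8.82, 6.20, 5.51 and 6.58 (-2.61). Both were high on the naive-labelled array alone. Emp1 was at 9.35, 6.65, 10.43 and 7.79 (-2.70), while its other probe set gave -0.29. Perp, a membrane protein gene and p53 target (-2.60), Akap6, an anchor of protein kinase A (-2.42), and Tgm3, a transglutaminase gene (-2.32), complete the 20 lowest.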

How the data were processed

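RNA of 4 CD4 T cell populations was measured on Affymetrix gene arrays, 1 array each. Per the submitters' processing notes, the authors deposited log2 values that Affymetrix Expression Console 1.3.1 summarised per probe set by RMA. No source used here gives the annotation version. Of 41345 probe sets, 23521 had 1 symbol in the platform annotation, 1814 several and 16010 none in that table. Those with several were left out. For the 1082 genes with more than 1 probe set, the highest mean over the 4 arrays decided. RefSeq symbols of GRCm38.p6 matched 22139 of 22180 genes and gave the class of RNA. The 55 gene lists, like the members, were chosen with earlier results of these data known. Named genes are the 20 highest and 20 lowest differences (predicted genes, small RNAs and receptor segments passed over), each list's 6 most different members, all members of the main T cell, sex-linked and MHC class II lists, and markers of the cells. Ube2c, Ctla2b, Cd55b, the miRNAs and some further members are named outside this rule, after their values were seen. The number of arrays limits the precision. Alternatives were another level filter, centring, a loess trend with a span of 0.3, other choices of probe set, a 3-fold threshold and omitted lists. Counting was tested on simulated data. The tools were pandas 2.3.3 and numpy 2.4.6 under Python 3.11.15, statsmodels 0.14.6 with scipy 1.17.1, and matplotlib 3.10.9.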

Additional observations from a re-analysis of the deposited data

How the results depend on the processing

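The counts at 2-fold were 100 higher and 326 lower. With the level filter at the 75th percentile they were 61 and 217, and at 3-fold 20 and 91, which fewer genes and a stricter threshold give by construction. Without a filter they were 138 and 351, after centring 117 and 285, after removal of a loess trend 124 and 287, with the mean of all probe sets 104 and 315, and with the probe set chosen on the arrays outside the comparison 100 and 326. Chosen after seeing the data, omission of other cell types' lists gave 99 and 313, and omission of the mitosis and DNA replication lists 100 and 301. Of 1456 alternative values for named genes, 1448 moved by less than the spread between probe sets and 8 moved by more. Much of this follows by construction. Centring moved every gene by the same small median difference (-0.06), and genes with 1 probe set cannot change with the choice of probe set. No difference past 2-fold changed sign, while 13 values of smaller differences did. All 8 that moved by more arose from the mean of probe sets. Among them Dtx1 was at 1.55, Emp1 at -1.49, Sez6l2 at 0.71 and Ighm at 0.20, from 0.93. Cst3 changed sign from -0.44 to 0.15. Of 329 alternative list medians 12 moved by more than that spread, and 18, none past 2-fold, changed sign. At the 75th percentile filter, which keeps fewer members, 11 moved. These were Th2 (-0.96), Th17 (-0.69), chemokine receptors (-0.89), ligands (-1.55), Klr receptors (-1.79), histones (-0.69) and markers of B cells (0.45, from -0.01), myeloid cells (-1.95), NK cells (-1.33), gamma delta T cells (-1.32) and thymic stroma (0.47). The other was Th2 at -0.31 without the loess trend. No paired analysis was possible because each group had 1 array. Dim probe sets such as Cd55 on the naive-labelled array, at 6.52, lie below the median of all values, where a difference is compressed.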

Other observations

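Of 357 genes past 2-fold that were neither predicted genes nor small RNAs nor receptor segments, 244 were on no list, and the following were picked after their values were seen. Lower in TT naive were further genes of cell division. Ckap2, a spindle-associated protein gene, was at 8.83 on the naive-labelled array, 7.24 in TT naive, 9.19 in cTh1 and 7.05 in nTh1, and Ect2, which acts in cytokinesis, at 10.50, 9.28, 10.81 and 9.29. Fam83d (-1.58), Cep55 (-1.21) and Melk (-1.16) were lower too. Vdr, the vitamin D receptor gene, was at 9.72, 7.48, 7.62 and 7.59 in the naive-labelled array, TT naive, cTh1 and nTh1, and Rxra, which encodes its partner in DNA binding, at 9.19, 7.99, 8.36 and 7.96. Both nuclear receptor genes were high on the naive-labelled array alone. Other genes high there alone were Niban1 (-2.13), Igfbp7 (-1.95) and Eng, a TGF-β co-receptor gene (-1.44). Higher in TT naive were Ddit4, a stress-induced inhibitor of mTOR signalling, at 10.16, 11.35, 11.52 and 9.48, and the non-coding RNA Neat1, which builds paraspeckles, at 9.11, 10.34, 9.54 and 10.22. Trib2 (1.08) and the BMP co-receptor gene Rgmb (1.04) were higher as well.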
